A study of Mus musculus with 6 samples.

Results

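The 41 genes described here are known for their expression in endothelial cells, the cells that line blood vessels. They were taken from a list chosen by known function, with earlier results of these data known. All 41 had a named row among the 24010 genes measured. By role they comprised 9 transcription factors, 11 receptors, 7 genes of cell junctions, 6 other surface proteins, 7 ligands, secreted or matrix proteins, and 1 enzyme. RNA came from dorsal pancreatic buds of mouse embryos at stage E11.5, explanted and cultured for 24 h, and every array held a pool of 10 buds. Control buds received 0.1% DMSO, and the others received I-BET151 at 500 nM or JQ1 at 100 nM, with 2 arrays in each of the 3 groups. Both compounds occupy the bromodomains of BET proteins, which read acetylated histones and recruit the machinery of transcription elongation. The doses of the inhibitors differed. The labels name no strain or genotype and leave unsaid whether replicate pools were dissected on separate days or from separate litters. The p-values therefore reflect pool-to-pool spread alone, and that spread may be technical.

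Endothelial cells arise from precursors that depend on ETS factors such as Etv2, and mature endothelium keeps its identity through Erg, Fli1 and the SoxF group, Sox7, Sox17 and Sox18. Vascular endothelial growth factor acts through Kdr, angiopoietins act through Tek, and bone morphogenetic proteins of the circulation act through Acvrl1 with its co-receptor Eng. In the embryo, endothelium next to the dorsal gut tube sends signals that promote the growth of the pancreatic bud. A bud in culture keeps vessels but has no blood flow.

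The bud values carried both tissues. Among markers of the pancreatic epithelium, Pdx1 was measured at a mean of 240.0 in controls and Cdh1 at 1448. Etv2 had the lowest control mean of the endothelial genes, 27.5. Etv2, Angpt2 and Vwf stood at percentiles 36.2, 42.3 and 46.0 of the control means over all genes. The lowest value in the table was 5, and no detection limit was set here. Arrays had median intensities of 54 to 57, and replicate arrays correlated at 0.995 to 0.996 over all genes on the log2 scale. Hexim1, a gene widely used as a readout of BET inhibition, rose in every treated pool, with controls at 625 and 656, I-BET151 pools at 982 and 1053 and JQ1 pools at 1263 and 1304.

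Aplnr, Tek, Eng and Clec14a fell under both inhibitors, and RefSeq promoter entries were found for 3 of these genes, Tek, Eng and Clec14a. Their 250 bases before the annotated start are shown because these are the members called with each compound. Capitals mark matches, on either strand, to the 6-base motifs listed after the sequences. All are in build GRCm38.p6, written 5′ to 3′ on the strand of the gene. The Tek stretch lies at chr4:94739039-94739288 on the plus strand, the Eng stretch at chr2:32646345-32646594 on the plus strand, and the Clec14a stretch at chr12:58269259-58269508 on the minus strand.
Tek: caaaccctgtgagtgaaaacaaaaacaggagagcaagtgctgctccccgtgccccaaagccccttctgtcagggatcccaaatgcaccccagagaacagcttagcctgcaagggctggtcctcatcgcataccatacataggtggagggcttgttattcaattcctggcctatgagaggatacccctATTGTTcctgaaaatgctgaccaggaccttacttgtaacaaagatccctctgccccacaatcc
Eng: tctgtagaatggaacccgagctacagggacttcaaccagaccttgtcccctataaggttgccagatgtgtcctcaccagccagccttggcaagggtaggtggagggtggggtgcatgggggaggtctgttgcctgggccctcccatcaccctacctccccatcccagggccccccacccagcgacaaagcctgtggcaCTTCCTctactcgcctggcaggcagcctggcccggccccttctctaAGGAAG
Clec14a: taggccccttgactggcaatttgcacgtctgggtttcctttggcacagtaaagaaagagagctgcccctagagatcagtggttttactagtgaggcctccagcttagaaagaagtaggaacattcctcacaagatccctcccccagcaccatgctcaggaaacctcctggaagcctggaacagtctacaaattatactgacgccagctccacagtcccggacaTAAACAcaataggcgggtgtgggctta

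The motifs searched were CGGAAG and AGGAAG for ETS factors, AACAAT for SOX factors, AGATAA for GATA factors, CAGCTG for the E-box of TAL1, TGTTTA for FOX factors and TATAAA for the TATA box, on both strands of the 300 bases from 250 before to 50 after the start. Eng held AGGAAG at 2 places, 52 and 6 bases before the start, the former on the opposite strand. Tek held AACAAT on the opposite strand 63 bases before the start, and AGATAA 37 bases after it, outside the stretch shown. Clec14a held TGTTTA on the opposite strand 27 bases before the start. Promoter entries existed for 22 of the 41 members, with 27 starts. AGGAAG was present in 48.1% of these 27 promoters and in 35.4% of all 32851 promoters. CGGAAG was present in 7.41% and 16.9%, and one or the other in 51.9% and 46.5%. AACAAT was found in 11.1% of member promoters and 10.7% of all, AGATAA in 11.1% and 11.2%, CAGCTG in 11.1% and 16.3%, TGTTTA in 11.1% and 13.4%, and TATAAA in 7.41% and 13.6%. These are matches of letters and not measured binding, and no motif was tested for excess.

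Most endothelial genes were lower in treated buds, by amounts that ranged widely between genes. A gene was called at a limma p-value under 0.05 after Benjamini-Hochberg adjustment over all 24010 genes. Under I-BET151, 4 of 41 genes fell and none rose, where 1.13% of all genes were called, 0.870% lower and 0.262% higher. Under JQ1, 13 of 41 fell and none rose, where 3.80% of all genes were called, 2.67% lower and 1.13% higher. For the mean of both inhibitors 13 fell and none rose, where 4.92% of all genes were called, 3.33% lower and 1.59% higher. The median log2 change over the 41 genes was -0.33 under I-BET151 and -0.45 under JQ1, beside 0.00 and 0.02 over all genes. Both I-BET151 arrays lay below both control arrays for 31 of the 41 genes (20.7% of all genes) and above them for 2 (21.5%). Both JQ1 arrays lay below for 34 (21.0%) and above for none (23.9%). In bulk tissue, fewer endothelial cells and less RNA per endothelial cell cannot be told apart.

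The counts of calls depended on having all 6 arrays. Dropping any single one of them, whichever control, I-BET151 or JQ1 array it was, left no member called by limma in either comparison, and no gene in the table. At an unadjusted p under 0.05, these 6 fits had 15 to 24 members under I-BET151 and 24 to 27 under JQ1. When only the dimmer genes, those under the median intensity, were left out, 37 members remained on all 6 arrays. Of these, 14 were called under I-BET151, 12 lower and 2 higher. Calls over all 12005 genes kept rose too, to 1422, 827 lower and 595 higher. Under JQ1 24 members were called, all lower, where 2362 of the 12005 genes were, 1319 lower and 1043 higher.

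**Figure D1:**
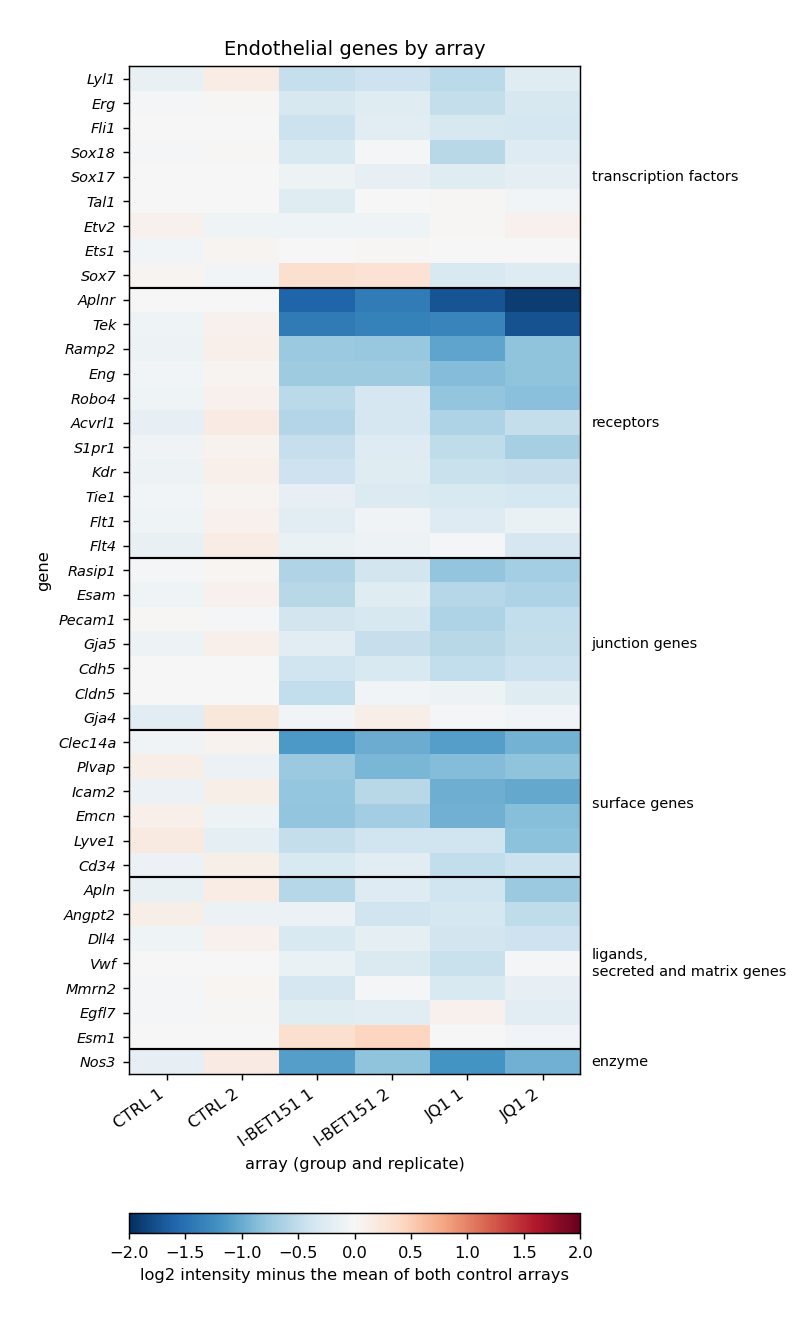
Heat map of the 41 endothelial genes (rows, grouped by role) on the 6 arrays (columns). Colour gives the log2 intensity minus the mean of both control arrays, blue for lower and red for higher. Aplnr and Tek are the darkest rows on all 4 treated arrays, and Sox7 and Esm1 are red on both I-BET151 arrays.

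The receptors held the largest falls. Aplnr, which encodes the receptor for apelin and marks venous and sprouting endothelium, measured 357 and 353 in control pools, 117 and 134 with I-BET151, and 107 and 95 with JQ1. It was 2.84-fold lower under I-BET151 (log2 change -1.50 ± 0.10, SE, limma adjusted p = 0.0316) and 3.52-fold lower under JQ1 (-1.82 ± 0.10, adjusted p = 0.0112). The control arrays were nearly equal, and every treated array stood far below them. Tek, the angiopoietin receptor that keeps vessels stable, was at 148 and 168 in controls, 59 and 62 with I-BET151, and 63 and 47 with JQ1. Its log2 changes were -1.38 ± 0.16 (adjusted p = 0.0461) and -1.54 ± 0.16 (adjusted p = 0.0233). Tie1, the partner of Tek at the membrane, did not follow it to that extent. It measured 259 and 277 in controls, 240 and 222 with I-BET151, and 218 and 210 with JQ1, and neither change was called (adjusted p = 0.225 and 0.0905).

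Eng, which encodes endoglin, fell from 599 and 640 to 378 and 377 with I-BET151 and to 340 and 353 under JQ1. These were falls of 1.64-fold (adjusted p = 0.0430) and 1.79-fold (adjusted p = 0.0154), with close agreement of replicates. Acvrl1, the type I receptor that works with endoglin, was at 150 and 187 in controls, 112 and 133 with I-BET151, and 109 and 120 with JQ1, with control arrays wide apart and no call (adjusted p = 0.209 and 0.126). Robo4, a guidance receptor that limits vessel leak, was at 288 and 323, 210 and 241, and 176 and 171 in the 3 groups, and fell 1.76-fold under JQ1 (adjusted p = 0.0304, and 0.128 under I-BET151). Ramp2, the partner that gives the calcitonin receptor-like receptor its affinity for adrenomedullin, was at 216 and 250, 139 and 138, and 112 and 133, and fell 1.90-fold under JQ1 (adjusted p = 0.0322). Under I-BET151 it was 1.68-fold lower and missed the threshold (adjusted p = 0.0735).

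The receptors for vascular endothelial growth factors shifted less. Kdr, the main signalling receptor of vessels, was at 1324 and 1508 in controls, 1055 and 1196 with I-BET151, and 1043 and 1025 with JQ1. Its groups did not overlap, and its log2 changes of -0.33 ± 0.10 and -0.45 ± 0.10 were not called (adjusted p = 0.188 and 0.0867). Flt1, a decoy receptor, and Flt4, the receptor of lymphatic and sprouting vessels, had log2 changes of -0.15 and -0.12 with I-BET151 and -0.20 and -0.18 with JQ1, and at least 1 treated array overlapped the controls in 3 of these 4 comparisons. S1pr1, the sphingosine-1-phosphate receptor that stabilises vessels, was at 307 and 339, 235 and 269, and 227 and 204, and was not called (adjusted p = 0.184 and 0.0611). Among the 11 receptors, 3 passed as lower with I-BET151 and 5 with JQ1, where 0.870% and 2.67% of all genes did. All 11 had negative log2 changes under each, as had 11050 and 10588 of all 24010 genes. The medians of the receptors were -0.44 and -0.58.

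Surface proteins outside the receptor group had the lowest median of the larger groups, -0.70 under I-BET151 and -0.87 under JQ1. Clec14a, a C-type lectin of endothelial tubes, was the member called under both. It measured 55 and 61 in controls, 26 and 29 with I-BET151, and 27 and 30 with JQ1, a fall of 2.11-fold (adjusted p = 0.0432) and 2.03-fold (adjusted p = 0.0208). The row was dim, so whole-number rounding is a larger share of its value than for brighter genes. Emcn, the sialomucin endomucin of veins and capillaries, was at 856 and 748, then 465 and 493, and then 411 and 442. It fell 1.88-fold under JQ1 (adjusted p = 0.0221) and was 1.67-fold lower under I-BET151, just outside the threshold (adjusted p = 0.0524). Plvap, which forms the diaphragms of fenestrated vessels, was at 322 and 273, 177 and 158, and 162 and 170, and fell 1.79-fold under JQ1 (adjusted p = 0.0343, and 0.0560 under I-BET151). Icam2, an adhesion molecule of endothelium and leukocytes, was at 281 and 329, 177 and 208, and 155 and 150, and fell 1.99-fold under JQ1 (adjusted p = 0.0288, and 0.0894 under I-BET151). Cd34, also carried by blood progenitors and some mesenchyme, was at 488 and 568, 424 and 456, and 376 and 390, and was not called (adjusted p = 0.253 and 0.0783). Lyve1, a hyaluronan receptor of lymphatics and of some macrophages, was at 92 and 71, 58 and 61, and 61 and 46, with wide replicates and no call (adjusted p = 0.305 and 0.163). With I-BET151, 1 of the 6 surface genes fell, with JQ1 4 did, and all 6 lay below the controls without overlap under each. Over all genes, 0.870% and 2.67% were called lower, and 20.7% and 21.0% lay below the controls without overlap.

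**Figure D2:**
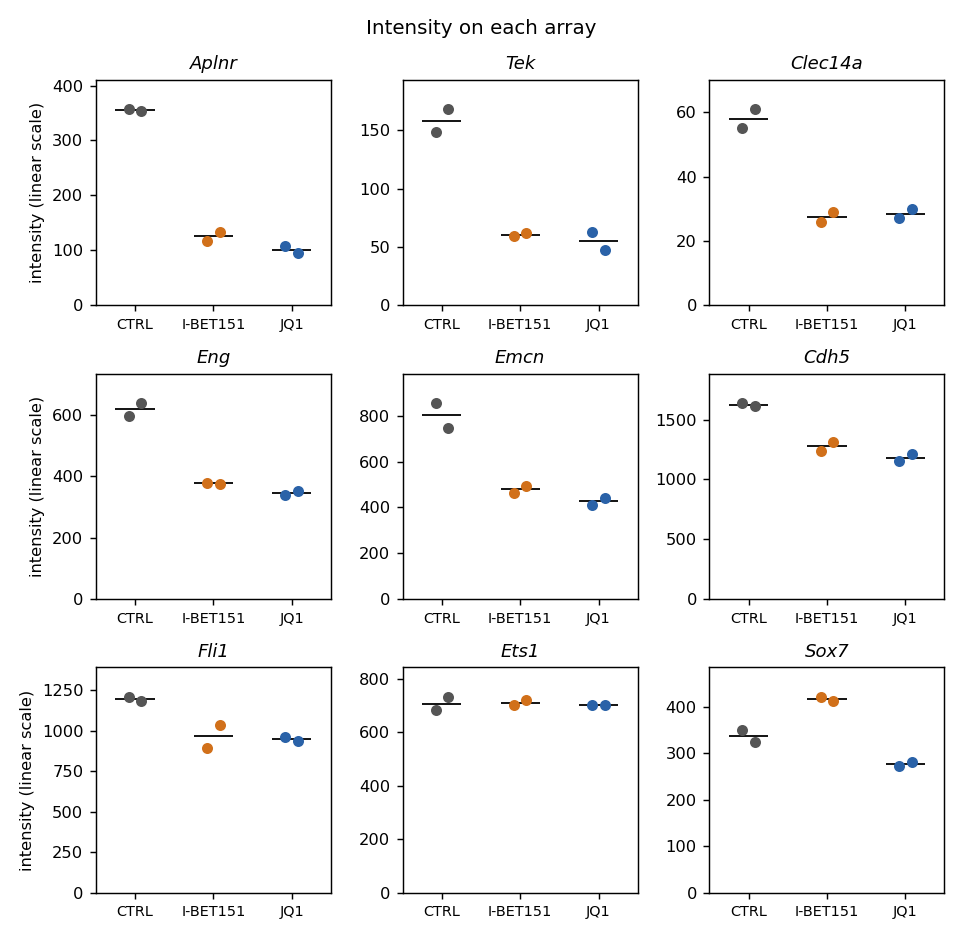
Intensity on a linear scale (vertical axes, each starting at 0) of 9 endothelial genes on each array. Points are arrays, 2 for each group, and bars are group means. Aplnr, Tek, Clec14a, Eng and Emcn show treated arrays well under the controls, Cdh5 and Fli1 a smaller gap, Ets1 none, and Sox7 lies above the controls under I-BET151 and below them under JQ1.

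Junction genes formed a middle group, with medians of -0.34 and -0.51, none called under I-BET151 and 3 of 7 fallen under JQ1. Of all genes, 0.870% and 2.67% were called lower. Cdh5, which encodes VE-cadherin and is among the most endothelium-restricted of these genes, was at 1640 and 1611 in controls, 1237 and 1317 with I-BET151, and 1157 and 1210 with JQ1. It fell 1.37-fold under JQ1 (adjusted p = 0.0383), and was 1.27-fold lower under I-BET151 (adjusted p = 0.0924). Pecam1, the platelet and endothelial adhesion molecule, was at 724 and 707, 557 and 574, and 466 and 507, and fell 1.47-fold under JQ1 (adjusted p = 0.0300, and 0.105 under I-BET151). Rasip1, a Ras-interacting protein needed for vessel lumens, was at 224 and 235, 151 and 177, and 133 and 143, and fell 1.66-fold under JQ1 (adjusted p = 0.0360, and 0.108 under I-BET151). For all 3 genes every treated array was below the controls. Replicates lay close together for Cdh5 and Pecam1, while the I-BET151 arrays of Rasip1 stood at -0.60 and -0.37 from its control mean (log2). Esam, an adhesion molecule of tight junctions, was at 233 and 260, 168 and 209, and 165 and 160, with no call (adjusted p = 0.207 and 0.0797). Cldn5, the claudin of endothelial tight junctions, was at 187 and 190, 134 and 182, and 176 and 159, where the I-BET151 arrays differed more from each other than their mean did from the controls.

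The gap junction genes of arteries, Gja5 and Gja4, were not called, and the difference between their changes was not tested. Gja5, which encodes connexin 40, was at 111 and 128, 102 and 87, and 81 and 86, lower without overlap (adjusted p = 0.227 and 0.0910). Gja4, which encodes connexin 37, was at 296 and 405 in controls, 334 and 374 with I-BET151, and 339 and 333 with JQ1, so that every treated array lay between the control arrays. The 95% intervals of its log2 change ran from -0.40 to 0.46 under I-BET151 and from -0.47 to 0.39 under JQ1.

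None of the 9 transcription factor genes was called by limma under I-BET151, under JQ1 or for the mean of both, with 4, 6 and 4 at an unadjusted p under 0.05. Of all 24010 genes, 4529, 5194 and 5440 were under it. The medians of the 9 factors were -0.14 and -0.28. With genes below the median intensity left out, Sox7 was higher under I-BET151 among 8 factors (limma adjusted p = 0.0415), and Sox7, Erg and Fli1 were lower under JQ1. Erg was also called under JQ1 without the lowest 25% of genes or with a pseudocount of 16. Erg, the ETS factor that maintains junctions and quiescence, was at 274 and 285 in controls, 225 and 237 with I-BET151, and 200 and 223 with JQ1 (adjusted p = 0.176 and 0.0697). Fli1, an ETS factor shared with blood cells, was at 1208 and 1183, 892 and 1036, and 959 and 937 (adjusted p = 0.171 and 0.122). Both were lower than the controls on every treated array, by -0.28 and -0.31 on the log2 scale under I-BET151 and by -0.40 and -0.33 under JQ1. Ets1, an ETS factor also made by mesenchyme, was at 681 and 732, 703 and 718, and 703 and 700. Its 95% intervals ran from -0.16 to 0.17 under I-BET151 and from -0.17 to 0.15 under JQ1, and the sign of such a small change depended on the scaling between arrays.

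The SoxF genes differed among themselves. Sox7 was at 349 and 323 in controls, 421 and 412 with I-BET151, and 272 and 281 with JQ1, above the controls with one compound and below them with the other. Neither change was called (log2 changes 0.31 ± 0.07 and -0.28 ± 0.07, adjusted p = 0.116 and 0.0988), nor was the difference between the compounds (adjusted p = 0.718). Sox17, which drives arterial fate and is also active in endoderm, was at 99 and 101, 93 and 89, and 85 and 88. Sox18, a regulator of lymphatic and early vessel growth, was at 302 and 312, 249 and 298, and 208 and 257, with treated replicates spread over most of the shift. Their adjusted p-values lay between 0.137 and 0.580.

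Lyl1 and Tal1, factors shared with the blood lineage, were not called. Lyl1 was at 88 and 108, 71 and 73, and 67 and 82, with the largest log2 change of the factors under I-BET151 (-0.44 ± 0.14, adjusted p = 0.217), and Tal1 was at 77 and 77, 65 and 77, and 78 and 74. Etv2, the master regulator of the first endothelial precursors, lay between 26 and 29 on all 6 arrays.

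Among the 7 ligands, secreted and matrix genes none was called by limma under I-BET151, under JQ1 or for the mean of both, with 2, 3 and 4 at an unadjusted p under 0.05. Of all 24010 genes, 4529, 5194 and 5440 were under it. The medians of the 7 genes were -0.22 and -0.24. Dll4, the Notch ligand of arteries and tip cells, was at 575 and 652, 497 and 538, and 477 and 459, with log2 changes of -0.24 and -0.39 (adjusted p = 0.248 and 0.0937). Apln, the ligand of Aplnr and a tip cell gene, was at 104 and 129, 78 and 97, and 88 and 69, a lower mean with wide replicates (adjusted p = 0.339 and 0.185). Its shift of -0.41 and -0.57 on the log2 scale was smaller than that of its receptor. With genes below the median intensity left out, Dll4 was called lower under JQ1, and Dll4 and Apln for the mean of both. Esm1, a proteoglycan of tip cells, was at 118 and 120 in controls, 149 and 161 with I-BET151, and 118 and 114 with JQ1. Both I-BET151 arrays were above the controls (log2 change 0.38 ± 0.07, adjusted p = 0.0858), and this became a call when genes below the median intensity were left out (adjusted p = 0.0240) and held in 2 of the 6 fits that also left out 1 array.

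Angpt2, the ligand that opposes Tek activation, was dim, at 40 and 34, 34 and 28, and 29 and 26. Egfl7, a secreted protein of the vessel wall and the host gene of a microRNA, was at 330 and 344, 285 and 292, and 356 and 290, with the JQ1 arrays on both sides of the controls. Mmrn2, a matrix partner of Clec14a, was at 226 and 239, 184 and 226, and 189 and 208. Vwf, the clotting factor stored by mature endothelium, was at 45 and 45, 41 and 37, and 33 and 44. None of these was called (adjusted p between 0.180 and 0.782).

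Nos3, the nitric oxide synthase of endothelium, was at 136 and 169 in controls, 71 and 87 with I-BET151, and 66 and 78 with JQ1. It fell 2.11-fold under JQ1 (log2 change -1.08 ± 0.17, adjusted p = 0.0471). Under I-BET151 it was 1.93-fold lower, with the same wide SE, and was not called (adjusted p = 0.0877).

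**Figure D3:**
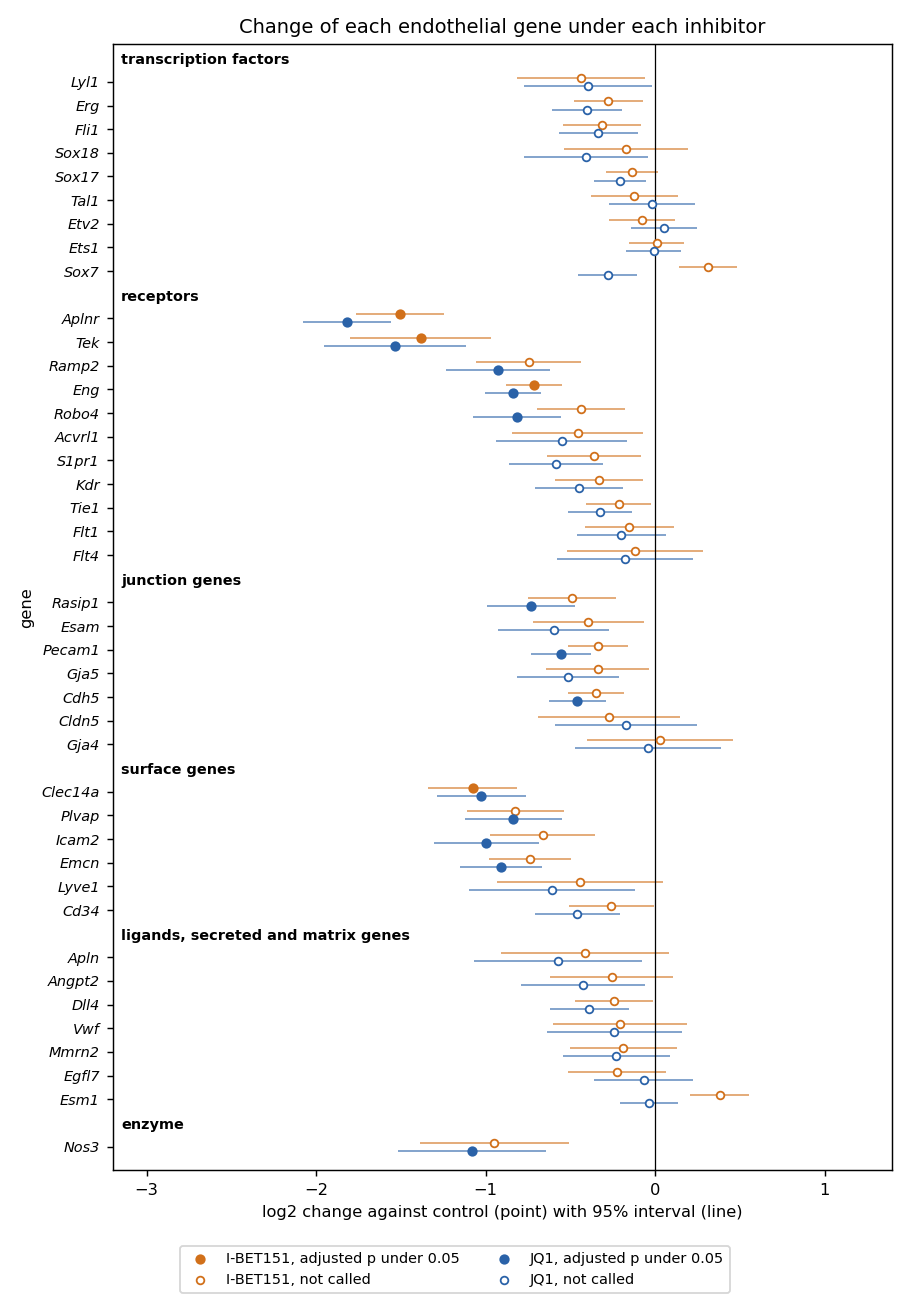
Log2 change of each of the 41 endothelial genes against control (points) with its 95% interval from the fit (lines), for I-BET151 in orange and JQ1 in blue. Filled points passed an adjusted p under 0.05. Filled points stand among receptors, junction genes, surface genes and Nos3, and none stands among transcription factors or ligands, secreted and matrix genes.

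The roles were also compared array by array. On the 4 treated arrays, in the order I-BET151 1, I-BET151 2, JQ1 1 and JQ1 2, the median change from the control mean was -0.24, -0.08, -0.30 and -0.25 for transcription factors. For receptors it was -0.54, -0.33, -0.62 and -0.66, for junction genes -0.39, -0.30, -0.56 and -0.47, and for surface genes -0.76, -0.62, -0.92 and -0.83. Ligands, secreted and matrix genes stood at -0.24, -0.21, -0.35 and -0.22. On each treated array, surface genes had the lowest median of these 5 groups, followed by receptors and junction genes, while transcription factors and the ligand group changed places between arrays. These medians over 6 to 11 genes are a description and were not tested.

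Each member was also set against Cdh5 on the same array, a reference chosen after the values were seen. Relative to Cdh5, 10 of the other 40 members were below both control arrays on all 4 treated arrays, where 2.26% of all genes were, namely Tek, Eng, Aplnr, Ramp2, Rasip1, Emcn, Plvap, Icam2, Clec14a and Nos3. Aplnr was lower than Cdh5 by a further -1.15 ± 0.07 (SD, n = 2) on the log2 scale under I-BET151 and -1.36 ± 0.17 under JQ1. Tek stood at -1.03 ± 0.01 and -1.08 ± 0.34, Clec14a at -0.73 ± 0.05 and -0.57 ± 0.06, and Eng at -0.37 ± 0.07 and -0.38 ± 0.01. Kdr stood close to Cdh5, at 0.02 ± 0.06 and 0.01 ± 0.06, as did Pecam1 under I-BET151, at 0.01 ± 0.03. On the other side, 11 members were above both control arrays relative to Cdh5 on all 4 treated arrays, where 79.2% of all genes were, since Cdh5 itself was lower there: Sox7, Sox17, Ets1, Etv2, Tal1, Flt1, Gja4, Esm1, Egfl7, Vwf and Mmrn2. Ets1 stood at 0.36 ± 0.04 and 0.45 ± 0.05 and Esm1 at 0.73 ± 0.02 and 0.42 ± 0.08. An exact permutation of treated against control arrays had 15 arrangements and a smallest possible p of 0.0667. It could not reach 0.05 for any gene, so these ratios are a description.

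**Figure D4:**
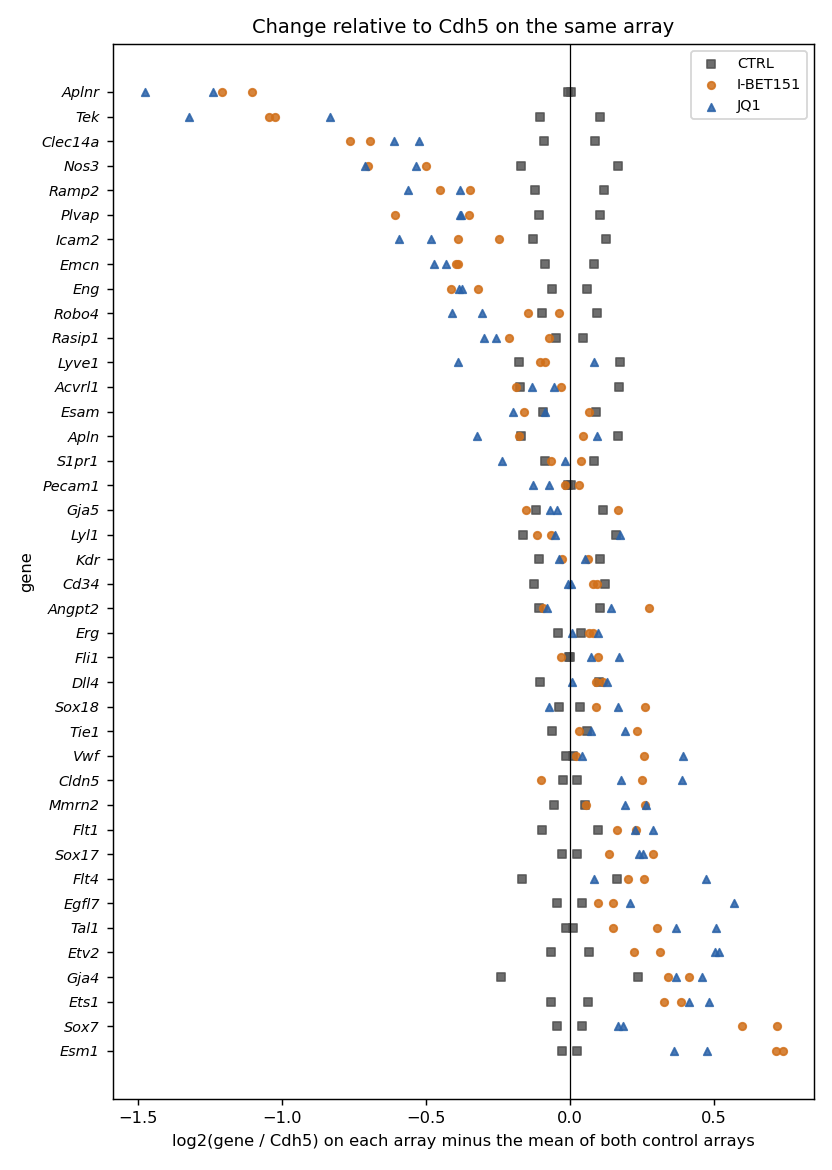
Log2 ratio of each of 40 endothelial genes to Cdh5 on the same array, minus the mean of both control arrays (horizontal axis), for each of the 6 arrays. Genes are sorted by the mean of the 4 treated arrays, from Aplnr and Tek, the lowest, at the top to Sox7 and Esm1, the highest, at the bottom, while Kdr and Pecam1 lie near 0.

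The inhibitors were given at different doses, so the values stand side by side and the contrast describes these cultures, not the compounds at a matched dose. No member was called between JQ1 and I-BET151 by limma, and no gene in the table was (0.00%), with 6 of 41 members and 1610 of 24010 genes at an unadjusted p under 0.05. The median difference of the members, JQ1 minus I-BET151, was -0.13 on the log2 scale, and 35 of 41 differences were negative. The largest differences were those of Sox7, at -0.59 with a 95% interval of -0.76 to -0.42, and Esm1, at -0.42 (-0.59 to -0.25). Both genes lay above the controls with I-BET151. Robo4 stood at -0.37 with a 95% interval of -0.63 to -0.12, Icam2 at -0.33 (-0.64 to -0.02), Aplnr at -0.31 (-0.57 to -0.05) and Pecam1 at -0.22 (-0.39 to -0.04). Plvap stood at -0.01 (-0.30 to 0.27) and Clec14a at 0.05 (-0.21 to 0.31). For Tek the interval ran from -0.57 to 0.26. These intervals are for single genes with no adjustment for their number.

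Partners of the members in the same pathways were also examined, 68 genes in all. Of these, 6 fell under I-BET151, and 12 fell and 1 rose under JQ1. Over all genes, 0.870% were called lower under I-BET151, and 2.67% lower and 1.13% higher under JQ1. Of 7 ligands and co-receptors of the vascular endothelial growth factor family, 6 had negative log2 changes under each inhibitor. Their medians were -0.30 and -0.52. Vegfa, the main ligand of Kdr, was the exception. It was at 735 and 764 in controls, 883 and 812 with I-BET151, and 892 and 928 with JQ1. Every treated array lay above the controls, but neither change was called (limma adjusted p = 0.280 and 0.109). Angpt1, the angiopoietin that activates Tek and is made by mesenchyme and mural cells, was at 208 and 163 in controls, 59 and 58 with I-BET151, and 64 and 44 with JQ1. It fell 3.47-fold under JQ1 (adjusted p = 0.0293) and missed the threshold under I-BET151 at 3.15-fold lower (adjusted p = 0.0550). Pgf, the placental growth factor that binds Flt1, fell from 274 and 274 to 101 and 130 (adjusted p = 0.0469) and to 93 and 80 (adjusted p = 0.0184). Vegfb, another ligand of Flt1, fell from 731 and 697 to 502 and 472, and to 453 and 455. Vegfc, the ligand of Flt4, was at 163 and 166 in controls and fell to 116 and 114 under JQ1 (adjusted p = 0.0241, and 0.101 under I-BET151).

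Of 17 further endothelial surface and intracellular genes, 4 fell under I-BET151 and 6 fell and 1 rose under JQ1, with medians of -0.31 and -0.56. The shares over all genes were 0.870% lower under I-BET151, and 2.67% lower and 1.13% higher under JQ1. Adgrf5 and Adgrl4, adhesion receptors of endothelium, Ecscr and Palmd fell under both. Adgrf5 went from 273 and 286 to 187 and 194 and to 145 and 145. Ptprb, the phosphatase that dampens Tek signalling, and Stab2, a scavenger receptor of sinusoids, fell under JQ1, and She for the mean of both. Stab1, a scavenger receptor of sinusoids that macrophages also make, rose under JQ1 from a control mean of 336.5 (log2 change 0.79, adjusted p = 0.0403). Calcrl, the receptor that Ramp2 accompanies, fell under JQ1 from 295 and 271 to 202 and 187.

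The other pathway groups were quieter. Of the 12 further transcription factors of endothelium, Mef2c fell under JQ1, from 440 and 484 to 317 and 315, and Hhex and Elk3 were not called. No gene was called among 8 Notch partners of Dll4 (medians -0.01 and -0.08) or among 10 partners of Acvrl1 and Eng in the pathway of bone morphogenetic proteins (medians -0.14 and 0.01), in which Id3 stood at -0.57 and -0.29, Smad9 at -0.65 and -0.54, and Smad5 at 0.32 and 0.15. By limma, 2 and 3 of the Notch partners and 4 and 4 of the other group had an unadjusted p under 0.05. Of all 24010 genes, 4529 and 5194 did. After adjustment, 2.67% of all genes were called lower under JQ1. The Notch genes Hey2, Nrarp and Jag1 stood at -0.25, -0.29 and 0.18 with I-BET151 and -0.32, -0.35 and 0.24 with JQ1. Of 13 genes of vessel guidance and mural recruitment, Calcrl alone was called, under JQ1, and Unc5b and Sphk1 had log2 changes of 0.29 and -0.18 there.

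Marker lists of other cell types are given beside the endothelial shift. The summed intensity of the 41 endothelial genes was 14064 and 14773 in controls, 10852 and 11759 with I-BET151, and 10277 and 10354 with JQ1. The sums weigh bright genes most, so the median log2 change of each list under I-BET151 and JQ1 stands here too, beside -0.33 and -0.45 for the endothelial genes. It was -0.40 and -0.48 for mesenchyme markers, -0.38 and -0.23 for pericyte and smooth muscle markers, and -0.69 and -0.41 for neural crest and neuron markers. It was 0.02 and -0.02 for pancreatic epithelium, -0.18 and -0.32 for macrophages, -0.32 and -0.24 for megakaryocytes and platelets, and -0.18 and -0.06 for erythroid cells. Lymphatic markers had medians of 0.05 and 0.05 and mesothelium markers of 0.14 and -0.21. Of 14 mesenchyme markers, 2 fell under I-BET151 and 4 under JQ1 (Postn and Dcn under both, Prrx1 and Meox1 under JQ1), with sums of 15455 to 15976, 13310 to 13760 and 13035 to 13298. Of 7 measured neural crest and neuron markers, 2 and 3 fell, and their sums were 2031 to 2127, 1047 to 1157 and 987 to 1050. Pericyte and smooth muscle markers (11) had no call under I-BET151 (limma, 8 at an unadjusted p under 0.05), and Kcnj8 rose under JQ1, with sums of 6786 to 6932, 6134 to 6200 and 6055 to 6423. Of these 11 markers, 9 had negative log2 changes under each inhibitor. For the mean of both, 1 was called lower and 1 higher. Pancreatic epithelium markers (12) had no call under I-BET151 (4 unadjusted), while Krt18 fell and Mnx1 rose under JQ1, and the sums were 8289 to 8589, 8157 to 8462 and 7577 to 8172. Of all 24010 genes, 4529 had an unadjusted limma p under 0.05 with I-BET151. After adjustment, 0.870% were called lower and 0.262% higher with I-BET151, and 2.67% lower and 1.13% higher with JQ1. For the mean of both, 3.33% were called lower and 1.59% higher. The part of these cell types in the endothelial values was not tested.

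Several members are also made by blood cells, among them Fli1, Tal1, Lyl1, Pecam1, Cd34 and Vwf. Of 12 macrophage markers, Fcgr1 fell under both inhibitors, and the sums were 5015 to 5386, 5008 to 5252 and 4747 to 5062. Erythroid markers (8 of 11 measured) summed to 9000 to 9815, 8750 to 9116 and 9377 to 9399, and megakaryocyte and platelet markers (6 of 8 measured) to 530 to 610, 408 to 425 and 438 to 457. Neither list had a call under either inhibitor by limma, with 3 and 1 erythroid and 4 and 2 platelet markers at an unadjusted p under 0.05, and Pf4 fell for the mean of both. Lymphatic markers (4 of 5 measured), with sums of 813 to 852, 857 to 871 and 840 to 895, had no call either (0 and 1 unadjusted). Of all 24010 genes, 4529 with I-BET151 and 5194 with JQ1 had an unadjusted limma p under 0.05. After adjustment, 0.870%, 2.67% and 3.33% were called lower with I-BET151, with JQ1 and for the mean of both. For that mean, 1.59% were called higher. Of 7 mesothelium markers, Upk3b fell under JQ1, and for the mean of both 1 marker was called lower and 1 higher. No marker of these lists lay at the lowest value of the table on all arrays.

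The pools of one group differed in endothelial signal. On CTRL 2, 29 of the 41 genes were higher than on CTRL 1 and 10 were lower, with a median difference of 0.10 on the log2 scale. On I-BET151 2, 31 were higher and 9 lower than on I-BET151 1, with a median difference of 0.11. JQ1 2 and JQ1 1 had 21 higher and 20 lower, with a median of 0.05. Over all genes the median difference was 0 in each group. These median differences between replicates were smaller than the median changes against control, and the list median stayed negative when any 1 array was left out, between -0.39 and -0.26 under I-BET151 and between -0.48 and -0.39 under JQ1.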

How the data were processed

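Affymetrix whole-transcript arrays were measured for 6 pools of 10 buds, per the labels' protocols. The authors deposited linear intensities as whole numbers, made with RMA (no version given), per the submitters' processing notes. RMA removes differences in total signal, so a change shared by most genes would not be seen. The sources used here do not state how probes were combined per gene. No counts lie behind the values, so their precision is limited by 2 arrays per group.

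Of 24972 rows, 24014 had 1 gene symbol in the platform annotation and 958 were not listed there, and 23921 row IDs were found in RefSeq (GRCm38.p6). For 4 symbols with several rows the brightest row was kept, which left 24010 genes. Log2(intensity), with no pseudocount and no filter, was fitted with limma 3.58.1 in R 4.3.3 (lmFit, eBayes) to all 6 arrays, with 3 residual and 1.76 prior degrees of freedom, and p-values were adjusted over all genes. Log2 changes are given ± SE from the fit. "Rose" and "fell" are used of genes called at 0.05. The fit was tested on simulated data, in 10 draws with 200 changed genes above the median intensity. For I-BET151 and JQ1 it called 50.8% and 48.1% of log2 changes of 1. Of changes of 0.5 it called 10.5% and 8.8%, so most changes of that size were missed. False calls averaged 4 and 1.9 per draw. Rounding left 257 genes with equal replicates in all 3 groups.

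The members, the partner and marker lists and the tests were chosen with earlier results of these data known, so no list was tested. The naming rule took members with array values, up to 3 partners per role with the smallest p for the mean of both inhibitors, and, of each marker list, the called genes and the 2 brightest. Further called partners, and Vegfa, which was not called, were named after their values were seen. Markers that were not called are mostly left to counts and sums, since they bear on no result. Alternatives changed scaling, filter, pseudocount, rounding, prior, samples in the fit and replicate block, and left out each array. Promoter sequences are those of RefSeq, matched by symbol.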

Additional observations from a re-analysis of the deposited data

Results flagged for a closer look

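Sox7 was the only one of the 41 endothelial genes whose I-BET151 arrays both lay above the controls while its JQ1 arrays both lay below them. Its log2 difference, JQ1 minus I-BET151, was -0.59 (95% interval -0.76 to -0.42), and limma did not call that difference after adjustment over all genes (adjusted p = 0.718). With genes below the median intensity left out, each change against control passed (adjusted p = 0.0415 under I-BET151 and 0.0412 under JQ1). Neither passed when any 1 array was left out as well (lowest adjusted p 0.0698 and 0.0589).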

How the results depend on the processing

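With 2 arrays per group, counts of called endothelial genes moved with the settings more than the log2 changes did. Calls over all genes moved too. Under I-BET151, 4 members and 272 of all 24010 genes were called. With each array centred on its median these counts were 8 and 533, and with an intensity trend 7 and 446. With genes below the median intensity left out they were 14 (12 lower, 2 higher) and 1422 of 12005. Without the lowest 25% they were 9 and 798 of 18007. They were 8 and 661 with a pseudocount of 16, 9 and 594 with rounding dithered, and 8 and 548 with a robust prior. Under JQ1, the 13 members and 912 genes called became 24 and 2362 with genes below the median left out. For the mean of both, 13 members and 1181 genes became 25 and 2675 with that filter, and 20 and 2045 without the lowest 25%. No member and no other gene was called under either inhibitor when only the groups of the contrast were fitted. Leaving out 1 array gave 0 called in each comparison, or 5 to 13 (I-BET151; 11 without either JQ1 array), 13 to 22 (JQ1) and 13 to 23 (mean of both) with genes below the median also left out. The median log2 change stayed within -0.39 to -0.26 and -0.48 to -0.39 with 1 array left out. No alternative called a member between the inhibitors.

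The replicate block gave 0 calls in each comparison, with 25, 30 and 30 members at an unadjusted p under 0.05. The labels do not say what a replicate number marks. Deviations of same-numbered arrays correlated at -0.02 (CTRL with I-BET151), -0.03 (CTRL with JQ1) and -0.04 (I-BET151 with JQ1) over all genes and at 0.35, 0.09 and -0.10 over the members, so the numbers were not taken as pairs.

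Signs turned only for small changes that were not called. With each array centred on its median, the JQ1 change became 0.056 for Ets1, 0.045 for Tal1, 0.021 for Gja4 and 0.028 for Esm1. With 1 array left out, ranges crossing 0 were -0.043 to 0.061 (Ets1, I-BET151), -0.061 to 0.043 (Ets1, JQ1), -0.20 to 0.26 (Gja4, I-BET151), -0.27 to 0.18 (Gja4, JQ1), -0.057 to 0.019 (Tal1, JQ1), -0.025 to 0.13 (Etv2, JQ1), -0.22 to 0.079 (Egfl7, JQ1) and -0.27 to 0.035 (Flt4, I-BET151). Without I-BET151 2, Ets1 stood at -0.0062 and Gja4 at -0.052 under I-BET151. The cause was not tested. Filters leave fewer genes to adjust for. Rounding limits dim genes such as Clec14a, Angpt2 and Etv2.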
